A study of Mus musculus with 2 samples.

Results

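Transcript levels of 10 genes at the centre of MLL/AF9 leukaemia were measured by poly(A)-selected RNA sequencing: 7 genes of the HoxA homeobox cluster (Hoxa3, Hoxa5, Hoxa6, Hoxa7, Hoxa9, Hoxa10 and Hoxa11), their DNA-binding partners Meis1 and Pbx3, and Myb. They were taken as a named list by Ensembl identifier, and all 10 were found among the 45318 genes of the deposited table. There were 2 libraries of mouse leukaemia blasts (strain C57Bl/6), 1 from brequinar-treated and 1 from vehicle-treated leukaemic mice. Both carried the MLL/AF9 fusion oncogene and were sorted from bone marrow as GFP-positive cells. Brequinar inhibits dihydroorotate dehydrogenase, a mitochondrial enzyme of pyrimidine synthesis. The sources used here do not give how the leukaemia was made, the dose, the treatment time or the number of animals per library.

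MLL, a histone methyltransferase, keeps Hox genes active during development and in blood stem cells, and fusions such as MLL/AF9 hold the posterior HoxA genes and Meis1 on in myeloid cells that would normally silence them. Hox proteins bind DNA weakly by themselves. Pbx and Meis proteins, homeodomain factors of the TALE class, bind beside them and raise their affinity and choice of sites. Hoxa9 with Meis1 is enough to transform mouse marrow progenitors, and Pbx3 is the Pbx protein most closely tied to that activity. Myb, a DNA-binding factor of immature blood cells, is needed for MLL/AF9 leukaemia cells to keep dividing without maturing.

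The HoxA genes lie together on the minus strand of chromosome 6 (GRCm38, GENCODE M21). There Hoxa3 spans 52169062 to 52213336, Hoxa9 spans 52223100 to 52231089 and Hoxa11 spans 52242106 to 52245810. Hoxa5 (52201754 to 52204587) and Hoxa6 (52206288 to 52208722) lie wholly inside the annotated Hoxa3 span, as does Hoxa4. Meis1 is on chromosome 11 (18879817 to 19018985), Pbx3 on chromosome 2 (34171457 to 34373142) and Myb on chromosome 10 (21124935 to 21160984), all on the minus strand. The 250 bases before the RefSeq start (GRCm38.p6) are shown for Hoxa9, the HoxA gene with the highest level, and Hoxa5, a neighbour with a lower ratio between the libraries, since MLL carries a domain that binds unmethylated CpG. Capitals mark CpG dinucleotides, and neither stretch overlaps an annotated exon.
Hoxa9, chr6:52227371-52227620, minus strand: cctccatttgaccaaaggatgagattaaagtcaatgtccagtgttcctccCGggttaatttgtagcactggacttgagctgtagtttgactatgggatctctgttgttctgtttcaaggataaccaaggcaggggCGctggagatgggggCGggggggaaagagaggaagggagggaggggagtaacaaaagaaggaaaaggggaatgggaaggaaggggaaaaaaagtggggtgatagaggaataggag
Hoxa5, chr6:52204588-52204837, minus strand: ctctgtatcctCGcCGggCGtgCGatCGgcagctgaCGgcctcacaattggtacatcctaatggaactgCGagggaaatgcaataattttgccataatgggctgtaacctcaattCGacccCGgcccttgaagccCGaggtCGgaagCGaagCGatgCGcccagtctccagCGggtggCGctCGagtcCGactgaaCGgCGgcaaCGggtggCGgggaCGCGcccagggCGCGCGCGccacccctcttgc

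The Hoxa9 stretch held 3 CpG and the Hoxa5 stretch 28. Over all 32851 promoter entries of the same length the median was 6 and the upper quartile 16. Of the 10 genes, 9 had an entry (Pbx3 is named only), and Hoxa10 had 2. Hoxa6 held 24 CpG, Hoxa3 held 18, Hoxa10 held 20 and 7, Hoxa7 held 7, Hoxa11 and Meis1 held 13 each, and Myb held 40. The Hoxa3, Hoxa6, Hoxa7, Hoxa11 and Meis1 stretches overlap annotated exons. The Meis motif TGACAG, searched on both strands, occurred in 1 of these 10 entries (Hoxa3), against 15.9% of all entries. The joint Pbx and Hox motif TGATTNAT occurred in none of them, against 2.82% of all entries. The Hoxa9 start used by RefSeq lies inside the longer span that GENCODE gives the gene. Methylation and factor binding were not measured here.

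Gene counts summed to 47950714 in the brequinar library and 47935476 in the vehicle library, so a single count was worth 0.0215 CPM (TMM-scaled counts relative to library size) in the brequinar library and 0.0202 CPM in the vehicle library. With 1 library per group there is no replicate check and no p-value for any difference. A gene was called at a ratio of 2-fold or more, if its mean over the libraries reached 1 CPM, which 11504 genes did. Of these, 6.45% were called higher and 4.4% lower in the brequinar library. Ratios are brequinar over vehicle, log2 ratios carry a prior count of 2, and intervals are exact 95% intervals for counting error only. Reads copied by amplification are not independent molecules, so even these can be too narrow. Fewer cells that express a gene and less RNA per cell cannot be told apart in such bulk samples.

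None of the 10 genes was called in either direction, beside 10.8% of all measured genes. For so few genes this count is near that share and does not set them apart. Hoxa9, Myb and the TALE partners differed little between the libraries, whereas Hoxa5 and Hoxa6, in the middle of the cluster, stood lowest by ratio. All 7 HoxA genes had log2 ratios below 0, Meis1 and Pbx3 had ratios above 0, and Myb lay just below 0. The median log2 ratio of the 10 genes was -0.24, beside 0.00029 over all 11504 genes. Of the 10 genes, 8 had ratios below 0, beside 49.9% of all measured genes.

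**Figure D1:**
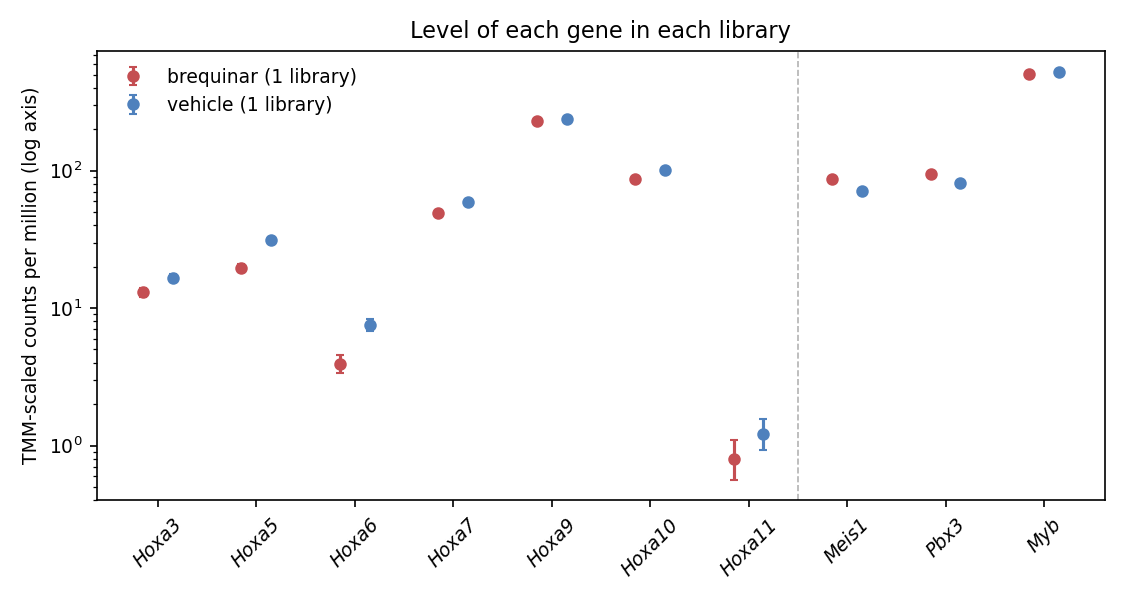
Level of each of the 10 genes in TMM-scaled CPM (log axis) in the brequinar library (red) and the vehicle library (blue). Points are single libraries, and bars are exact 95% Poisson intervals for counting error. Myb stands at 504 CPM in the brequinar library and 524 CPM in the vehicle library, and Hoxa11 at 0.797 CPM in the brequinar library and 1.21 CPM in the vehicle library. Levels are not corrected for gene length, so pairs of points are to be compared within a gene.

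Hoxa9 (ENSMUSG00000038227.12), a HoxA gene that MLL fusions hold on, stood at 231 CPM in the brequinar library (10713 counts) and 238 CPM in the vehicle library (11798 counts). Its ratio was 0.967 (interval 0.942 to 0.993), and 45.2% of measured genes had a ratio as low or lower. Hoxa10, its neighbour and a factor of immature myeloid cells, stood at 87.7 CPM in the brequinar library and 102 CPM in the vehicle library. The Hoxa10 ratio was 0.860 (interval 0.825 to 0.897). These differences are small on the scale of all genes, whose log2 ratios had an interquartile range of -0.30 to 0.29, although their counting intervals do not reach a ratio of 1.

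Hoxa7 is a further HoxA gene that MLL fusions hold on. It stood at 49.5 CPM in the brequinar library and 59.6 CPM in the vehicle library (ratio 0.830, interval 0.786 to 0.877). Hoxa11 is a posterior gene best known from limb, kidney and uterus. It had 37 counts in the brequinar library and 60 in the vehicle library, and its interval, 0.424 to 1.01, reached past 1. With a mean just above 1 CPM it lay at the edge of the filter, and these counts did not resolve a difference in Hoxa11.

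Hoxa6 (ENSMUSG00000043219.9) had the lowest ratio of the 10 genes. It stood at 3.92 CPM in the brequinar library (182 counts) and 7.58 CPM in the vehicle library (375 counts). That is 1.93-fold lower in brequinar (interval 1.62 to 2.32), and 4.97% of measured genes had a ratio as low or lower. Its log2 ratio of -0.94 lay next to the 2-fold limit, and it was -1.04, and so called lower, when libraries were scaled by total counts.

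Hoxa5, a factor that favours myeloid over erythroid fate in human progenitors, stood at 19.5 CPM in the brequinar library and 31.2 CPM in the vehicle library. It was 1.60-fold lower in brequinar (interval 1.47 to 1.74), and 10.1% of measured genes had a ratio as low or lower. Hoxa3, an anterior gene of thymus and pharyngeal development, stood at 13.0 CPM in the brequinar library and 16.5 CPM in the vehicle library (ratio 0.789, interval 0.709 to 0.878). At a limit of 1.5-fold, 2 of the 10 genes were lower (Hoxa5 and Hoxa6) and none higher, beside 12.7% of all measured genes lower and 12.7% higher.

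**Figure D2:**
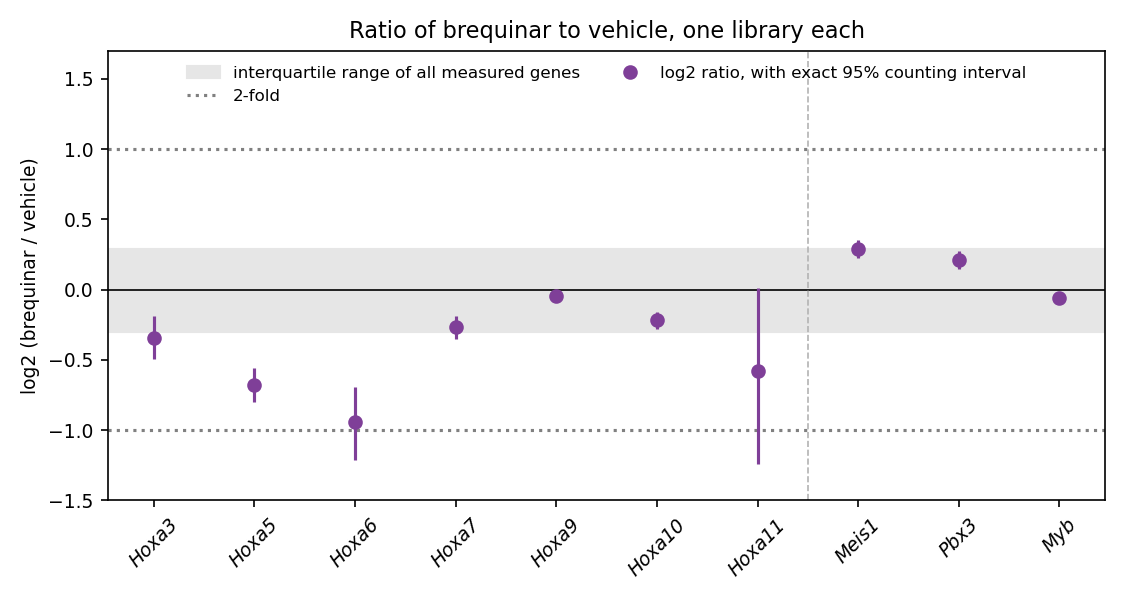
Log2 ratio of brequinar over vehicle for each of the 10 genes (1 library per treatment). Points carry a prior count of 2, vertical lines are exact 95% counting intervals, the grey band is the interquartile range of all 11504 measured genes and dotted lines mark 2-fold. All 7 HoxA genes lie below 0, with Hoxa6 at -0.94 and Hoxa9 at -0.05, and Meis1 (0.29) and Pbx3 (0.21) lie above.

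Within each library the 7 HoxA genes can be set against each other, and there no scaling between libraries enters. Hoxa9 made 56.9% of their summed counts in the brequinar library (exact binomial interval 56.2 to 57.6) and 52.2% in the vehicle library (51.6 to 52.9). Hoxa5 made 4.82% in the brequinar library (4.52 to 5.14) and 6.84% in the vehicle library (6.51 to 7.17). Hoxa6 made 0.967% in the brequinar library (0.832 to 1.12) and 1.66% in the vehicle library (1.5 to 1.84). The make-up of the HoxA counts thus leaned more to Hoxa9 in the brequinar library, and less to Hoxa5 and Hoxa6.

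Hoxa9 had the highest ratio of the HoxA members, so with Hoxa9 as reference every other member is lower by construction. Measured against Hoxa9, the exact conditional interval lay below 1 for 5 of the 6 other HoxA members. These comparisons share the Hoxa9 counts and restate the ratios given above, so they are not separate evidence. For Hoxa6 the ratio relative to that of Hoxa9 was 0.535 (0.444 to 0.641), and for Hoxa5 it was 0.647 (0.593 to 0.706). For Hoxa3 it was 0.816 (0.731 to 0.910), for Hoxa7 0.858 (0.807 to 0.912), and for Hoxa10 0.889 (0.847 to 0.934). Hoxa11, at 0.679 (0.438 to 1.04), was the exception. Among these members the ratio was thus lowest at Hoxa6 and Hoxa5. It was closest to that of Hoxa9 at Hoxa10 and Hoxa7, but their intervals overlap that of Hoxa3, so these counts do not separate the 3. The Hoxa11 interval also spans the Hoxa5 and Hoxa6 values. Hoxa4, next to Hoxa5, is not a member and lay below the filter. Its ratio of brequinar over vehicle was 0.547 (interval 0.297 to 0.976), beside 0.626 for Hoxa5 (0.576 to 0.680). The order therefore does not describe every gene along the chromosome.

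**Figure D3:**
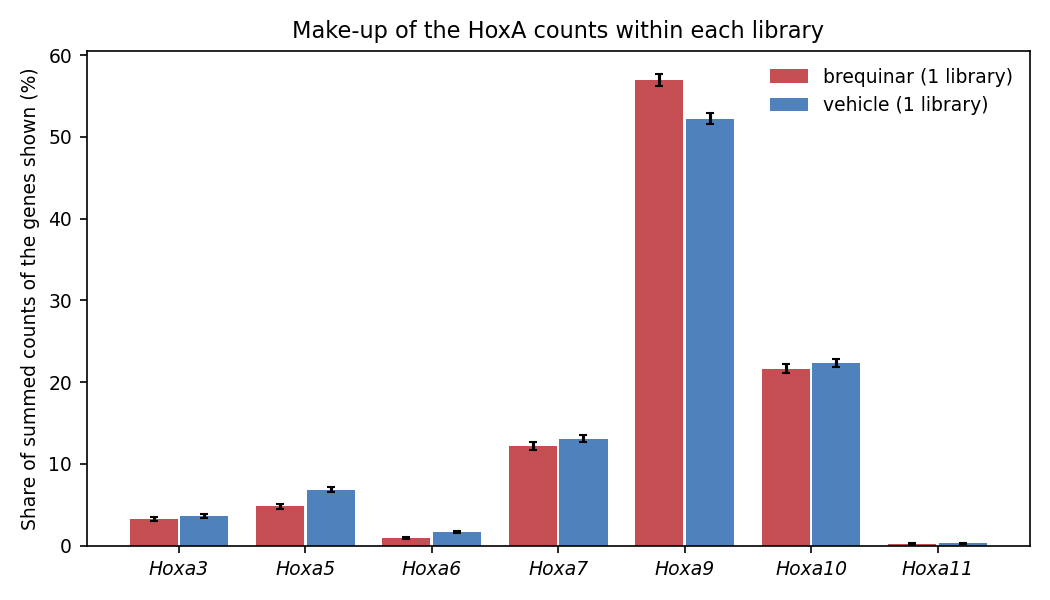
Share of the summed counts of the 7 HoxA genes that each gene took (percent), in the brequinar library (red) and the vehicle library (blue), with exact 95% binomial intervals. Hoxa9 takes 56.9% in the brequinar library and 52.2% in the vehicle library, and Hoxa5 takes 4.82% in the brequinar library and 6.84% in the vehicle library.

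Meis1 (ENSMUSG00000020160.15), the TALE partner that turns Hoxa9 from an immortalising into a fully leukaemogenic factor, stood at 87.4 CPM in the brequinar library (4060 counts) and 71.6 CPM in the vehicle library (3541 counts). Its ratio was 1.22 (interval 1.17 to 1.28). Pbx3 (ENSMUSG00000038718.12) stood at 94.8 CPM in the brequinar library and 81.8 CPM in the vehicle library, a ratio of 1.16 (interval 1.11 to 1.21). Both were therefore slightly higher by ratio where all HoxA members were lower, yet both lay inside the interquartile range of all genes.

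Myb (ENSMUSG00000019982.11) had the most counts of the 10 genes, 23414 in the brequinar library and 25930 in the vehicle library. It stood at 504 CPM in the brequinar library and 524 CPM in the vehicle library, and its ratio was 0.962 (interval 0.945 to 0.979). Of measured genes 44.3% had a ratio as low or lower, so Myb lay near the middle of all genes.

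Per kilobase of annotated exon, Myb again stood highest, at 56.4 CPM per kilobase in the brequinar library and 58.7 in the vehicle library. Hoxa9 came next, at 41.3 in the brequinar library and 42.7 in the vehicle library. Among all measured genes, this level put Hoxa9 at percentile 88.5 in the brequinar library and 89.4 in the vehicle library. Hoxa10 followed at 26.8 in the brequinar library and 31.2 in the vehicle library, and Hoxa7 at 17.2 in the brequinar library and 20.7 in the vehicle library. The order below Hoxa10 depended on the gene length used. By union exon length, Pbx3 (15.5 CPM per kilobase) stood above Hoxa5 (10.4) in the brequinar library, and Hoxa5 (16.6) above Pbx3 (13.4) in the vehicle library. Likewise Meis1 (8.30) stood above Hoxa6 (4.48) in the brequinar library, and Hoxa6 (8.67) above Meis1 (6.79) in the vehicle library. By the longest transcript, Pbx3 stood above Hoxa5 in both libraries (33.2 over 10.4 CPM per kilobase in the brequinar library and 28.6 over 16.6 in the vehicle library). Meis1 then also stood above Hoxa6 in both libraries (11.6 over 4.48 in the brequinar library and 9.47 over 8.67 in the vehicle library). By union exon length, Hoxa3, at 2.17 in the brequinar library and 2.75 in the vehicle library, and Hoxa11, at 0.348 in the brequinar library and 0.530 in the vehicle library, closed the order. In both libraries the counting intervals of neighbours in the library's own order by union exon length did not overlap. With 1 library each the spread between animals is unknown, so whether neighbours differ beyond it cannot be said.

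The cluster holds more than these genes. Across the HoxA locus up to Evx1, 39 genes are annotated and 38 were in the table, of which 21 had no count in either library and 13 had more than 3 counts in at least 1 library. Besides the 7 HoxA members, these included Hoxa2, Hoxa4, Hoxaas3, Gm15050 and Gm27477. Hoxa2, a hindbrain and neural crest gene, had 122 counts in the brequinar library and 108 in the vehicle library (ratio 1.20, interval 0.921 to 1.57). It was the only further gene of the locus that passed the filter. Hoxa4 had 19 counts in the brequinar library and 37 in the vehicle library (ratio 0.547, interval 0.297 to 0.976). Hoxaas3, an antisense transcript across Hoxa3 to Hoxa7, had 19 counts in the brequinar library and 10 in the vehicle library. Gm15050 had 0 counts in the brequinar library and 6 in the vehicle library, and Gm27477 had 0 counts in the brequinar library and 4 in the vehicle library. Hottip and Evx1, at the posterior end, had no count, and Hoxa13 had 1 count in the brequinar library and 0 in the vehicle library.

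Overlap limits some of these values. Hoxa7 shares 20.4% of its exon bases with Hoxaas3 on the other strand, Hoxa3 shares 25.4% with genes on the other strand and 8.01% with the same-strand gene Gm28308, and Hoxa11 shares 35.0% with its antisense gene Hoxa11os. The sources used here do not give the strand setting of the counting, so reads from these bases cannot be assigned to a strand. Hoxa5, Hoxa6, Hoxa10 and Pbx3 share no exon base with another gene of the table, although Hoxa5 and Hoxa6 lie inside the Hoxa3 span. Meis1 shares 9.77% with the same-strand gene Gm37818 and 8.51% with Gm16140 on the other strand. Myb shares 6.26% with Gm26577 on the other strand. The miRNA gene Mir196b lies wholly inside a Hoxa9 exon and had no count in either library, which says nothing of the mature miRNA.

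The other Hox clusters had few counts. Of 28 HoxB, HoxC and HoxD genes, 14 had no count in either library and only Hoxb4 and Hoxb13 passed the filter. Hoxb4, a factor of blood stem cell self-renewal, stood at 2.41 CPM in the brequinar library and 4.0 CPM in the vehicle library (ratio 0.603, interval 0.474 to 0.763). Hoxb13, best known from prostate and tail development, stood at 3.60 CPM in the brequinar library and 6.02 CPM in the vehicle library (ratio 0.597, interval 0.491 to 0.724). Neither was called.

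Of 10 further genes of the TALE class and its regulators, 6 were measured, of which 2 were called lower. The repressors Tgif2 and Tgif1, which compete for Meis-type sites, were lower. Tgif2 stood at 0.366 CPM in the brequinar library (17 counts) and 2.00 CPM in the vehicle library (99 counts). Its ratio was 0.183 (interval 0.102 to 0.308), but it passed the filter of 1 CPM only through the vehicle library. Tgif1 stood at 2.86 CPM in the brequinar library and 8.73 CPM in the vehicle library. Pbx2, another Pbx gene, stood at 99.7 CPM in the brequinar library and 82.6 CPM in the vehicle library and was not called.

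Among 7 relatives and partners of Myb and of Hoxa9, Cebpa was called lower and none higher. Cebpa, a myeloid factor that binds beside Hoxa9, stood at 30.3 CPM in the brequinar library and 75.4 CPM in the vehicle library. Mybl1, a Myb paralogue, stood at 9.36 CPM in the brequinar library and 4.79 CPM in the vehicle library, just inside 2-fold. Cebpb stood at 36.7 CPM in the brequinar library and 26.8 CPM in the vehicle library. Taf12, a TFIID subunit that binds Myb, stood at 52.6 CPM in the brequinar library and 40.3 CPM in the vehicle library. The acetyltransferase genes Ep300 and Crebbp, whose products bind Myb, had log2 ratios of 0.12 and 0.10.

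Lists of genes reported to be bound or regulated by these factors held ratios past 2-fold, some higher and some lower in the brequinar library. Of 13 measured genes tied to Hoxa9 or Meis1, 2 were called higher and 4 lower, with a median log2 ratio of 0.16 that lies on the other side of 0 from that of the 10 genes. Id2, an inhibitor of basic helix-loop-helix factors, and Camk2d, a calcium-dependent kinase, were the higher genes, with log2 ratios of 2.10 and 1.56. Sox4, a factor of immature cells, had a log2 ratio of -1.78 and Flt3, a growth factor receptor, one of -1.61. Of 10 genes tied to Myb, all measured, 4 were called lower and none higher, with a median log2 ratio of -0.79. These 4 were Mpo, Cd34, Bcl2 and Kit, of which Cd34 and Bcl2 are on both lists, and Mpo had the lowest log2 ratio, -2.59. Mpo, Cd34 and Kit, with Elane and Prtn3, are also on the list of blast and granulocyte progenitor genes given below. The results of those lists are therefore not separate.

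**Figure D4:**
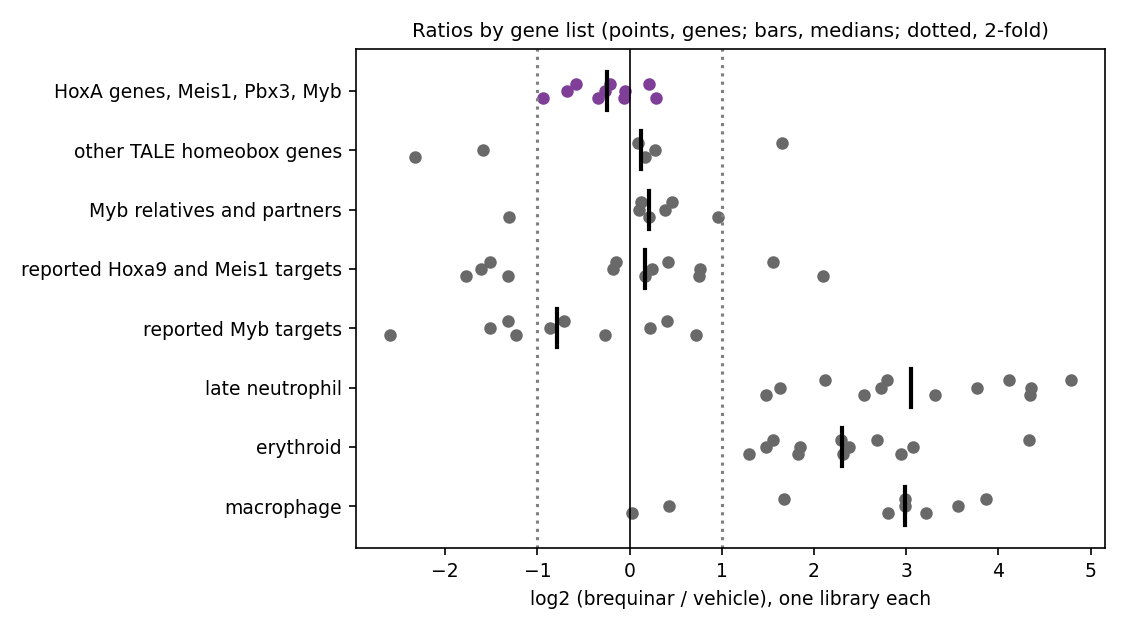
Log2 ratio of brequinar over vehicle (1 library per treatment) for the measured genes of each list. Points are genes, black bars are list medians and dotted lines mark 2-fold. The HoxA genes with Meis1, Pbx3 and Myb all lie inside 2-fold, with a median of -0.24, while all 12 late neutrophil genes lie above it.

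The sorted cells also differed in other ways. All 12 late neutrophil genes were called higher, with a summed level of 24985 CPM in the brequinar library and 1833 CPM in the vehicle library. Of 7 genes of blasts and granulocyte progenitors, all measured in the sorted cells, 3 were called lower and none higher. These 3 were Kit, Cd34 and Mpo, which are also on the list tied to Myb. The summed level of the 7 was 5927 CPM in the brequinar library and 14401 CPM in the vehicle library. Without Mpo, the other 6 summed to 4949 CPM in the brequinar library and 8489 CPM in the vehicle library. Ms4a3 went the other way, at 264 CPM in the brequinar library and 159 CPM in the vehicle library. All 12 measured erythroid genes of 13 were higher (summed level 293 CPM in the brequinar library and 83.5 CPM in the vehicle library). Of 9 measured macrophage genes of 10, 7 were higher (summed level 908 CPM in the brequinar library and 638 CPM in the vehicle library). Most of both sums came from the measured genes that were not called, Vcam1 and Adgre1. Vcam1 stood at 496 CPM in the brequinar library and 370 CPM in the vehicle library. Adgre1 stood at 225 CPM in the brequinar library and 221 CPM in the vehicle library. Of 7 megakaryocyte genes 3 were measured and 2 higher (30.4 CPM in the brequinar library and 15.9 CPM in the vehicle library). The 8 B cell genes summed to 19.9 CPM in the brequinar library and 32.1 CPM in the vehicle library, with 4 measured, 1 higher and 1 lower. Cd79b alone gave that direction (9.86 CPM in the brequinar library and 26.2 CPM in the vehicle library), and the other 7 summed to 10.1 CPM in the brequinar library and 5.90 CPM in the vehicle library. The 8 T and NK cell genes summed to 10.4 CPM in the brequinar library and 23.1 CPM in the vehicle library, with 1 measured and lower. That gene, Nkg7 (7.45 CPM in the brequinar library and 22.0 CPM in the vehicle library), gave the direction of the sum, and the other 7 summed to 2.99 CPM in the brequinar library and 1.01 CPM in the vehicle library. No defining gene of these lists was at 0 in both libraries. The part of these cells in the ratios of the 10 genes was not tested.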

How the data were processed

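The deposited table holds raw counts per gene, in whole numbers, for 2 libraries. Per the labels' protocols, mRNA was selected with oligo dT and made into strand-preserving paired-end libraries. The submitters' processing notes name STAR 2.4.2a, Picard 1.99, Picard 2.2.4 and mm10. The sources used here do not give the counting program, the annotation or how strand was treated. Columns were matched to samples by name. Lines of reads that name no gene held 20.2% of reads in the brequinar library and 21.6% in the vehicle library and were left out. Symbols, positions and exon lengths came from GENCODE mouse M21 (GRCm38, the assembly of mm10), matched without version (44671 of 45318 identifiers). Promoter sequences came from RefSeq (GRCm38.p6).

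Libraries were scaled with the TMM method of edgeR 4.0.16 under R 4.3.3 (factor 0.969 for brequinar, 1.03 for vehicle), and log2 ratios used a prior count of 2. Intervals of ratios were exact (Clopper-Pearson), conditional on a gene's summed count. Levels per length used the union of annotated exons. DESeq2 1.42.0 gave alternative size factors. Other steps used scipy 1.17.1, pandas 2.3.3, numpy 2.4.6 and matplotlib 3.10.9 in Python 3.11.15. The procedure was tested on counts simulated with Poisson counting error only. Such counts hold no spread between animals and no amplification copies, so the test says nothing of either. The alternatives were 3 other scalings, 2 other filters, 2 other prior counts, 2 other call rules and another gene length. The members and lists were chosen with earlier results of these data known. Named were all 10 members, the genes of the HoxA locus with more than 3 counts, and from each list up to 4 measured genes whose log2 ratio lay farthest from 0. Ep300, Crebbp, Hoxa13, Hottip, Evx1, Mir196b, Cd79b, Nkg7, Elane, Prtn3, Ms4a3, Vcam1 and Adgre1 are named outside this rule, chosen after their values were seen. A few genes that the rule would name are not reported here.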

Additional observations from a re-analysis of the deposited data

How the results depend on the processing

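No paired analysis was possible because each treatment has 1 library, and for the same reason no replicate could be left out. No gene of the 10 was called higher under any of 9 alternatives. The count called lower was 1 (Hoxa6) with scaling by total counts and 2 (Hoxa5 and Hoxa6) at 1.5-fold, and 0 under the other 7. Of 69 recomputed ratios of the 10 genes none changed sign, 7 moved outside their counting interval, and the largest shift was 0.092 in log2, from scaling by total counts, which moved the median of all genes by -0.091. Over all genes, 2470 were called higher and 2074 lower with no filter, 457 higher and 230 lower with a filter at 5 CPM, and 1456 higher and 1463 lower at 1.5-fold. When the whole counting interval had to lie beyond 2-fold, 600 were called higher and 288 lower. Hoxa11 did not pass the filter of 5 CPM. With the longest transcript as gene length, the level of Myb was 136 CPM per kilobase in the brequinar library and 142 in the vehicle library. Pbx3 (33.2) then stood above Hoxa7 (24.4) in the brequinar library, and Pbx3 (28.6) below Hoxa7 (29.3) in the vehicle library. In the brequinar library Hoxa3 (5.04) then stood above Hoxa6 (4.48) and Meis1 (11.6) above Hoxa5 (10.4). Depth limits Hoxa11 and Hoxa4 most.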
